A study of Neurospora crassa with 5 samples.

Results

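The 10 genes described here carry out DNA methylation, heterochromatin formation and repeat-induced point mutation (RIP) in the filamentous fungus Neurospora crassa. They were chosen by locus tag and by no rule on their values, though earlier results of these data were known. All 10 were found among the 10591 gene rows of the count table. Rid (NCU02034) and dim-2 (NCU02247) encode proteins of the DNA methyltransferase family. The products of dim-5 (NCU04402), dim-7 (NCU04152), dim-8 (NCU06605) and dim-9 (NCU01656) act together in histone H3 lysine 9 methylation, and hpo (NCU04017) encodes heterochromatin protein HP1. Set-7 (NCU07496), eed (NCU05300) and suz12 (NCU05460) encode subunits of the Polycomb repressive complex PRC2. RNA was sequenced from a mat 1-2-1 mutant, strain FGSC#4564 of genotype mat a[m1]s-3B cyh-1, grown on crossing medium for 6 days until protoperithecia, the immature female fruiting bodies, were abundant. Uncrossed cultures were taken at 0 h (2 libraries, replicates 1 and 3). Crossed cultures were taken 2 h after conidia (asexual spores) of the wild type FGSC#2489 were added (3 libraries, replicates 1, 2 and 3). Every library has the mutant as female parent, each plate made a replicate, and wild-type cultures were not analysed here, so the data do not bear on the mutation. No library here is from an uncrossed culture at 2 h. Crossing, elapsed time, handling and the added conidia therefore cannot be told apart in any difference given below.

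In RIP, duplicated DNA is mutated from C to T during the sexual phase, in the nuclei of both parents before they fuse, and RID is needed for it. Sequences left rich in A and T are then packed as heterochromatin in vegetative cells. DIM-5 methylates histone H3 at lysine 9, HP1 binds that mark, and HP1 brings in DIM-2, the enzyme behind the known cytosine methylation of this fungus. PRC2 methylates histone H3 at lysine 27 and keeps a separate group of genes silent.

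The libraries held 25817200 to 39639683 counts, and the 10 genes together drew 8477 to 13896 of them. All 10 genes passed the filter on low counts and were among the 8638 genes tested. Ribosomal RNA genes took 14.3 to 34.0% of a library and the summed level of 5 markers of conidia (eas, con-13, con-10, con-8 and con-6) was 15162 and 30531 CPM (counts scaled to a library of fixed size) before and 35718 to 64029 CPM after crossing. Of these markers 5 of 5 were measured, none was at 0, and the highest values of both quantities were in crossed replicates 2 and 3. Eas made up most of the sum in each library, and the groups overlapped in con-8 and con-10. The lowest level of con-10 was in crossed replicate 1, at 485.3 CPM, against 521.3 and 497.3 CPM before crossing. The added conidia carry RNA of their own, and its part in the results below was not tested. In such bulk samples fewer cells of a type and less RNA per cell cannot be told apart. The mutated gene gave no check of the labels, since its row holds more values than there are libraries.

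The highest and the lowest of the genes differed far more from each other than any gene did between libraries. Levels are compared between genes as CPM per kb of gene span, introns included, with CPM scaled by the trimmed mean of M-values (TMM). The order was hpo (mean over the 5 libraries 24.9 CPM per kb), dim-8 (18.8), dim-2 (11.7), dim-7 (9.11), dim-9 (6.79), dim-5 (5.78), suz12 (5.27), set-7 (4.02), eed (1.43) and rid (0.657). The transcript of hpo, whose product HP1 reads lysine 9 methylation, thus had a mean level per kb 37.9 times that of rid. The ranges over the 5 libraries of dim-9 and dim-5 overlapped, as did those of dim-5 and suz12, while every other pair of neighbours in this order was separate. Among 8480 tested protein-coding genes, hpo stood at the 68.7th percentile of this scale, dim-2 at the 41.9th, eed at the 8.83rd and rid at the 4.63rd. The gene spans come from a table whose assembly may differ from that of the counts.

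**Figure D1:**
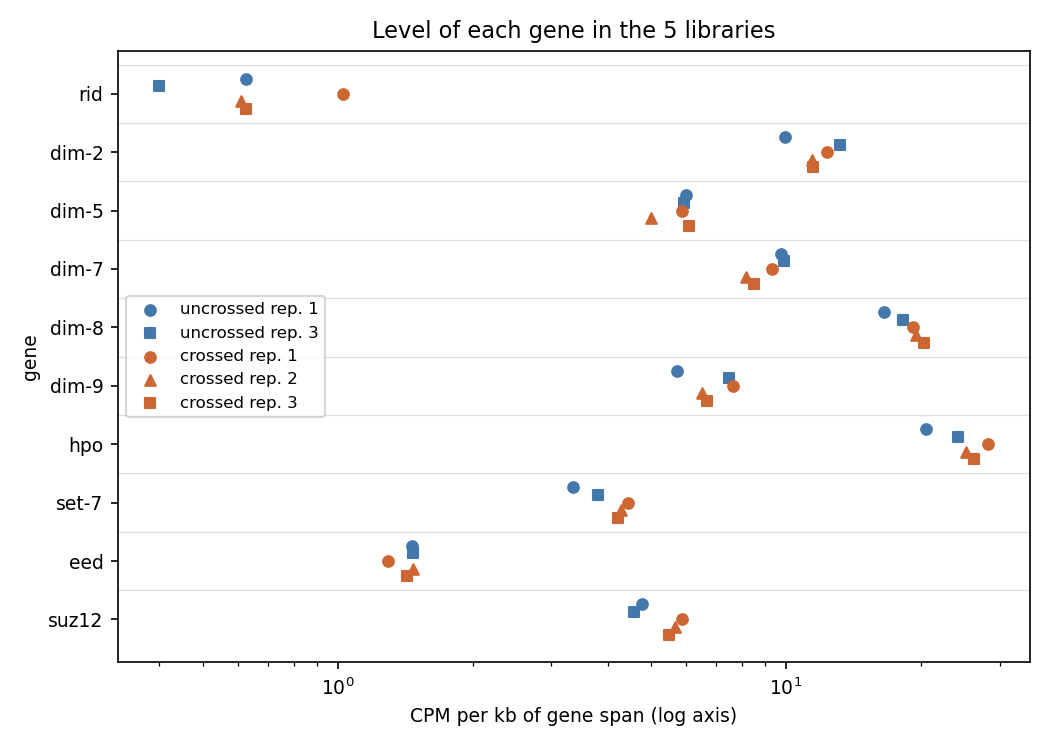
Level of each of the 10 genes, in CPM per kb of gene span on a log axis, with 1 point for each of the 2 uncrossed (blue) and 3 crossed (orange) libraries. The rows run from rid, at 0.401 to 1.03, to suz12, and hpo reaches the highest level, 28.3, in crossed replicate 1.

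None of the 10 genes passed an adjusted p of 0.05 after crossing in the quasi-likelihood test of edgeR with Benjamini-Hochberg adjustment over all tested genes. Over all genes 4 of 8638 passed (0.0463%), so a count of 0 in 10 is near that background. Neither DESeq2, which called 11.8% of all genes, nor limma-voom, which called 0.0579%, called any of the 10. At an unadjusted p under 0.05 there was 1 of the 10, suz12, against 21.3% of all tested genes in either direction and 10.3% in the direction of suz12. The groups did not overlap in 5 of the 10 genes, against 41.9% of all tested genes. In set-7, suz12, hpo and dim-8 the crossed libraries were the higher ones (21.3% of all genes), and in dim-7 they were the lower ones (20.6%). The median log2 fold change was 0.13 over the 10 genes and 8.0e-04 over all tested genes. With plain library sizes in place of TMM the median of all genes moved to -0.21 and that of the 10 genes to -0.079. On that scale the groups did not overlap in 2 of the 10 genes, dim-7 and eed, against 38.3% of all genes, and both were lower after crossing (28.5%). Taken relative to that shift, the sign of all 10 genes was as under TMM. Subtracting the median nearly repeats the TMM scaling (set-7 at 0.2762 against 0.2705 under TMM), so this is no separate check.

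The tests limit how large a change could have been missed. For the 9 genes other than rid, no 95% interval of the log2 fold change under TMM reached beyond 0.57 in either direction. The intervals of these 9 genes with plain library sizes reached from -0.86 (dim-7 and eed) to 0.52. Rid, with the fewest counts, had an interval of -0.38 to 1.51 under TMM, which spans a 0.768-fold to a 2.85-fold level, and one of -0.71 to 1.47 with plain library sizes. These intervals are for each gene alone and are not adjusted for the number of genes.

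**Figure D2:**
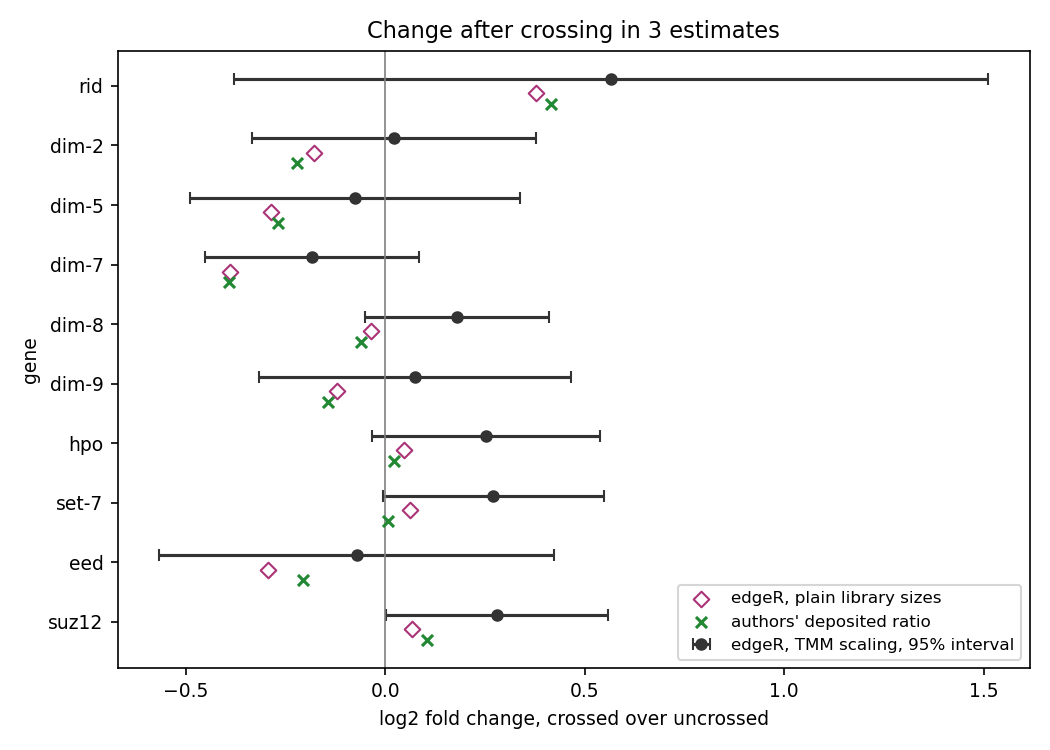
Log2 fold change of each gene, crossed over uncrossed, from edgeR with TMM scaling and its 95% interval (black), from edgeR with plain library sizes (open diamonds) and from the authors' deposited ratio (green crosses). The interval of suz12, 0.0020 to 0.56, is the one of 10 that leaves out 0, and the other 2 estimates lie to the left of the TMM estimate in every gene.

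Rid encodes a putative DNA methyltransferase that RIP requires, and its transcript was the scarcest and the most variable of the 10. It had 58 and 53 counts in uncrossed replicates 1 and 3, and 116, 66 and 54 counts in crossed replicates 1, 2 and 3, which is 1.97 and 1.27 CPM before and 3.25, 1.92 and 1.97 CPM after crossing. Crossed replicate 1 was high and uncrossed replicate 3 low, while the other 3 libraries lay between 1.92 and 1.97 CPM, so the groups overlapped. The exact 95% Poisson interval of crossed replicate 1, 2.69 to 3.90 CPM, lay above those of all other libraries, whose highest limit was 2.57 CPM; such intervals cover counting error only. The mean was 1.62 CPM before (SD 0.501, n = 2) and 2.38 CPM after crossing (SD 0.755, n = 3). The log2 fold change was 0.57 (SE 0.38, edgeR adjusted p = 0.411). It was 0.27 without crossed replicate 1 and also without uncrossed replicate 3, 0.91 without uncrossed replicate 1, and 0.70 and 0.68 without crossed replicates 2 and 3. The gene table lists rid as rid-1. It also gives NCU02034 as a former tag of the neighbouring gene NCU02035, which has its own row here, at 5.95 to 10.7 CPM, and no row of the count table carries either former tag of rid.

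Dim-2 encodes the DNA methyltransferase that writes cytosine methylation. Its level was 56.6 and 75.1 CPM before crossing (replicates 1 and 3) and 70.2, 65.1 and 65.4 CPM after it (replicates 1, 2 and 3). The uncrossed libraries held both the lowest and the highest value, and all 3 crossed libraries fell between them. The log2 fold change was 0.021 (SE 0.14, 95% interval -0.33 to 0.38, edgeR adjusted p = 0.933), which is a 0.793-fold to a 1.30-fold level. Its sign turned to -0.17 without uncrossed replicate 1 and to -0.016 without crossed replicate 1. The ratio of rid to dim-2 per kb, which does not depend on how libraries are scaled, was 0.0628 and 0.0303 before and 0.0834, 0.0532 and 0.0543 after crossing. Transcripts of rid were therefore the rarer in every library, and the ratios of the groups overlapped.

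The products of dim-5, dim-7, dim-8 and dim-9 form, with the cullin CUL4, the complex that methylates lysine 9 (DCDC). Dim-5, the histone methyltransferase itself, had 10.1 and 9.98 CPM before and 9.90, 8.44 and 10.2 CPM after crossing. Crossed replicate 2 was the low one and the groups overlapped, with a log2 fold change of -0.078 (SE 0.17, edgeR adjusted p = 0.794). Dim-7, whose product guides DIM-5 to heterochromatin, had 35.9 and 36.6 CPM before and 34.4, 30.0 and 31.3 CPM after crossing. All 3 crossed libraries lay below both uncrossed ones, by a log2 fold change of -0.18 (SE 0.11, edgeR adjusted p = 0.353). The span of dim-7 overlaps that of the neighbouring gene NCU04151, whose log2 fold change was -0.044 (SE 0.12), and since it is not known here whether counting used strand, reads of the shared stretch cannot be told apart.

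Dim-8 encodes the DDB1 adaptor, which joins cullin CUL4 to its partners and serves other complexes as well. It had 66.7 and 73.3 CPM before and 77.3, 78.7 and 81.7 CPM after crossing. The crossed libraries were the higher ones without overlap, and the mean was 70.0 CPM before (SD 4.69, n = 2) and 79.2 CPM after (SD 2.29, n = 3). The log2 fold change was 0.18 (SE 0.093, edgeR adjusted p = 0.312). With plain library sizes that value was -0.036 and the groups overlapped, and without uncrossed replicate 1 it was 0.11 under TMM. Dim-9, the substrate-binding partner of DDB1 in the complex, had 24.1 and 31.4 CPM before and 32.2, 27.4 and 28.2 CPM after crossing. Uncrossed replicate 1 was low, uncrossed replicate 3 lay within the crossed range, and the log2 fold change was 0.074 (SE 0.16, edgeR adjusted p = 0.792).

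Within a library, dim-8 transcripts exceeded those of dim-5 per kb by 2.76 and 3.07 times before and by 3.27, 3.90 and 3.35 times after crossing. This ratio was higher in every crossed library than in both uncrossed ones. The share of all gene pairs with ratios apart was not computed, and 41.9% of single tested genes had groups apart under TMM. The ratio of dim-7 to dim-5 was 1.62 and 1.67 before and 1.59, 1.62 and 1.40 after crossing, and that of dim-9 to dim-5 was 0.953 and 1.26 before and 1.30, 1.29 and 1.10 after crossing. Both of these overlapped between the groups. The cullin gene cul4, which completes the complex, had 70.1 and 68.4 CPM before and 73.6, 70.3 and 74.1 CPM after crossing. Its log2 fold change was 0.070 (SE 0.086, edgeR adjusted p = 0.642), and the groups lay apart by a margin narrower than the range of either one and overlapped with plain library sizes.

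Hpo, the gene for HP1, had 49.0 and 57.6 CPM before and 67.4, 60.3 and 62.8 CPM after crossing. Uncrossed replicate 1 was the lowest and crossed replicate 1 the highest, with no overlap of the groups. The uncrossed mean was 53.3 CPM (SD 6.08, n = 2), the crossed one 63.5 CPM (SD 3.62, n = 3). The log2 fold change was 0.25 (SE 0.12, 95% interval -0.035 to 0.54, edgeR adjusted p = 0.273), and it was 0.048 with plain library sizes, where the groups overlapped. Under TMM it was 0.14 without uncrossed replicate 1 and 0.37 without uncrossed replicate 3.

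In PRC2, the catalytic subunit gene set-7 and the core subunit gene suz12 were both higher in every crossed library, and eed, whose product binds methylated lysine 27, was not. Set-7 had 22.6 and 25.7 CPM before and 30.0, 28.8 and 28.4 CPM after crossing. Its log2 fold change was 0.27 (SE 0.11, edgeR adjusted p = 0.241). Suz12 had 17.5 and 16.8 CPM before and 21.5, 20.8 and 20.2 CPM after crossing, with a mean of 17.2 CPM (SD 0.481, n = 2) against 20.8 CPM (SD 0.663, n = 3). The groups were separate and the spread within each was small. Its log2 fold change was 0.28 (SE 0.11), the unadjusted p 0.0489 and the edgeR adjusted p 0.233, so that it did not pass the threshold. With plain library sizes the groups overlapped in both genes, at log2 fold changes of 0.063 for set-7 and 0.067 for suz12.

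Eed had 119 and 171 counts before and 128, 140 and 108 counts after crossing, or 4.05 and 4.08 CPM against 3.59, 4.08 and 3.94 CPM. Crossed replicate 1 was the lowest, and crossed replicate 2 lay between the uncrossed libraries. The log2 fold change was -0.072 (SE 0.20, edgeR adjusted p = 0.841), and it was -0.021 without crossed replicate 1 and -0.11 without crossed replicate 2. It was -0.29 with plain library sizes, where the groups did not overlap. Within a library, the ratio of eed to suz12 per kb was 0.307 and 0.323 before and 0.222, 0.261 and 0.259 after crossing. All 3 crossed ratios lay below both uncrossed ones, and so did those of eed to set-7. As above, 41.9% of single tested genes had groups apart under TMM, and the share of gene pairs was not computed. Both ratios rest on the 108 to 171 counts of eed, and their counting error was not computed. The ratio of set-7 to suz12 was 0.703 and 0.831 before and 0.760, 0.757 and 0.768 after crossing, and all 3 crossed ratios fell between the uncrossed ones. A ratio within a library shows unequal levels and does not say which gene moved.

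**Figure D3:**
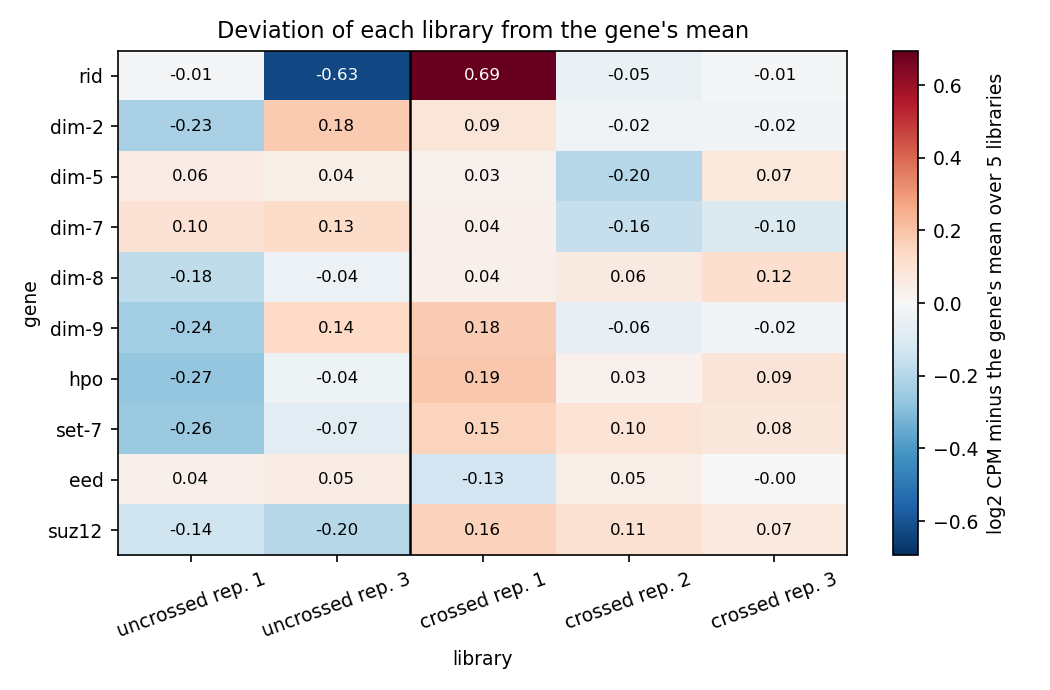
Deviation of each library (columns) from the mean log2 CPM of each gene (rows), with the value in each cell; the black line parts the 2 uncrossed from the 3 crossed libraries. Rid holds the extreme values, -0.63 in uncrossed replicate 3 and 0.69 in crossed replicate 1, and uncrossed replicate 1 is below the mean in rid (by a deviation of -0.0093), dim-2, dim-8, dim-9, hpo, set-7 and suz12.

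For 6 of the 10 genes (rid, dim-2, dim-5, dim-7, dim-9 and eed) the range of log2 CPM inside the wider group was larger than the difference between the group means. Uncrossed replicate 1 was the lowest library in 5 genes (dim-2, dim-8, dim-9, hpo and set-7) and the highest in none, while it was lowest in 32.3% and highest in 32.0% of all tested genes. Crossed replicate 1 was the highest in 5 genes (rid, dim-9, hpo, set-7 and suz12), against 16.1% of all tested genes. No test was made on these counts.

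Across the 5 libraries 9 of the 10 genes varied less than the median tested gene. The tested genes had means from 0.121 CPM upward, and neither this comparison nor the percentiles below were matched for level. The SD of log2 CPM over all 5 libraries was 0.077 in eed, 0.11 in dim-5 and dim-8, 0.13 in dim-7, 0.15 in dim-2, 0.16 in suz12 and 0.17 in set-7, dim-9 and hpo, against a median of 0.22. Eed had a smaller SD than all but 7.26% of tested genes although its level was low. Its levels, 3.59 to 4.08 CPM, all lay within the exact Poisson interval of each library. In uncrossed replicate 3, for example, that interval was 3.495 to 4.744 CPM. The spread of eed was thus within counting error, and its small SD does not show that the gene is steadier than others. Rid had an SD of 0.47, at the 80.2nd percentile.

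**Figure D4:**
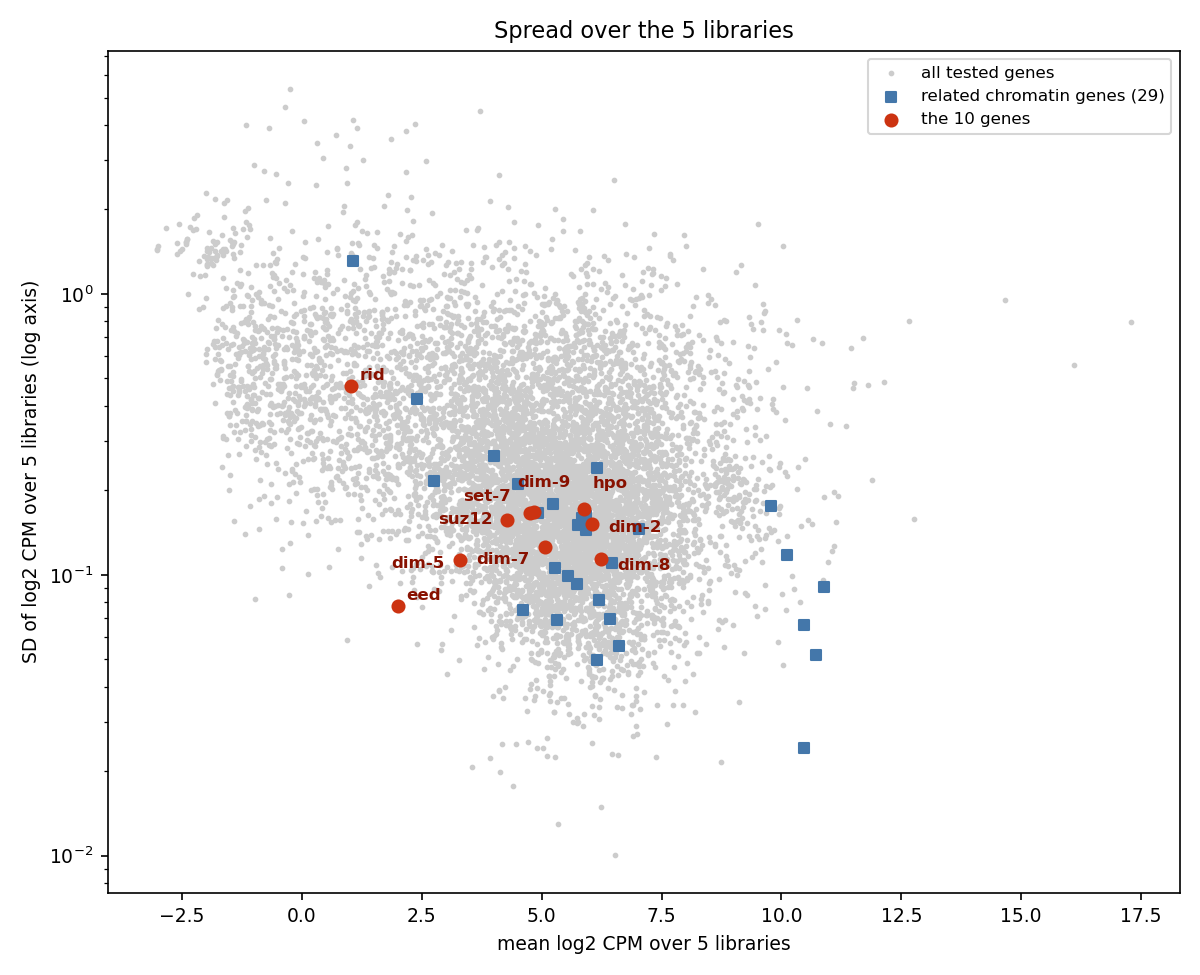
SD of log2 CPM over the 5 libraries (log axis) against mean log2 CPM for all 8638 tested genes (grey), 29 related chromatin genes (blue squares) and the 10 genes (red, named). Rid stands high at 0.47, eed low at 0.077, and the other 8 genes lie between 0.11 and 0.17.

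The genes most like rid and dim-2 over the 5 libraries were sought among tested genes with a mean of at least 10 CPM, by Pearson's r of log2 CPM, as a description of 5 points. For rid they were NCU05589 (r = 0.979), NCU04855 (r = 0.979) and NCU05338 (r = 0.978). Of these NCU05338 had the widest range, from 47.6 CPM in uncrossed replicate 3 to 88.3 CPM in crossed replicate 1. For dim-2 they were NCU07718 (r = 0.999), NCU08029 (r = 0.998) and NCU08610 (r = 0.997). All 3 were lowest in uncrossed replicate 1 and highest in uncrossed replicate 3, as dim-2 was. An r above 0.9 was reached by 47 of 6797 genes for rid and by 160 of 6796 for dim-2.

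Other chromatin genes were taken from a list of 36 symbols, of which 29 were matched in the gene table, and all 29 were tested. None passed an adjusted p of 0.05 by edgeR, 2 had an unadjusted p under 0.05 (1 higher and 1 lower), and DESeq2 called none. Their median log2 fold change was 0.082, with 23 above 0 and 6 below, whereas with plain library sizes 3 were above 0 and 26 below. Of all 8638 tested genes 4328 were above 0 under TMM, and 6446 were below 0 with plain library sizes. The groups did not overlap in 11 of the 29, or 37.9%, near the 41.9% of all tested genes. They did not overlap in 3 of the 29 with plain library sizes, or 10.3%, against 38.3% of all tested genes. These were nst-2, nst-6 and nst-7, all lower after crossing.

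Among 6 cofactors of lysine 9 and DNA methylation (cul4, cdp-2, chap, hda-1, dmm-1 and dmm-2) every log2 fold change was above 0 under TMM, and 2 were above 0 with plain library sizes. The smallest p of the 6 was that of cdp-2, a chromodomain protein that works with HP1, CHAP and the deacetylase HDA-1. It had 30.8 and 35.6 CPM before and 39.5, 40.3 and 42.0 CPM after crossing, without overlap, and the groups overlapped with plain library sizes. Its log2 fold change was 0.29 (SE 0.11, unadjusted p = 0.0422, edgeR adjusted p = 0.221). The chromatin assembly genes cac-1, cac-2 and cac-3, listed as Polycomb cofactors, had log2 fold changes of 0.088, 0.023 and 0.033 with overlapping groups. The groups also overlapped in the methyltransferase genes set-1 and set-2, at -0.0017 and 0.14.

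Of the 10 listed genes for deacetylases and sirtuins, 5 had log2 fold changes above 0 and 5 below, with a median of -0.051. The 6 related genes of smallest p, named by rule, include 4 sirtuin genes, which encode deacetylases that use NAD and make up 7 of the 29. Nst-1, nst-3, nst-5, hda-2, hda-3 and hda-4 had log2 fold changes of -0.33 to 0.19 and unadjusted p of 0.123 or more. Nst-7 had 10.2 CPM in uncrossed replicate 1 and 1.48, 1.04, 1.72 and 1.28 CPM in the other libraries, uncrossed replicate 3 first. Its log2 fold change of -2.11 (SE 0.78, edgeR adjusted p = 0.212) thus rested on 1 library. Without uncrossed replicate 3 it was -2.93 with an adjusted p of 0.0419 by edgeR, where 2.19% of all genes passed. Nst-6 had 5.85 and 7.86 CPM before and 5.10, 3.49 and 4.78 CPM after crossing (log2 fold change -0.62, SE 0.26, edgeR adjusted p = 0.245). Nst-2 lay lower after crossing at -0.24 (SE 0.12, edgeR adjusted p = 0.296) and nst-4 higher at 0.24 (SE 0.10, edgeR adjusted p = 0.255), each without overlap of the groups, which nst-4 lost with plain library sizes. The histone variant gene hH2Az, the last of the 6, had 118.7 and 120.1 CPM before and 127.3, 148.5 and 142.3 CPM after crossing (log2 fold change 0.22, SE 0.11, edgeR adjusted p = 0.284), and its groups too overlapped with plain library sizes.

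The authors' deposited table gives 1 relative estimate per gene and stage with limits. In it the intervals of the stages lay apart in 6 of the 10 genes, against 75.3% of 9205 genes with estimates for both stages. The authors' deposited table put rid higher after crossing, at a ratio of 1.33 (15.7% of all genes were apart in that direction). It put dim-7 (0.761), dim-5 (0.830), dim-2 (0.858), dim-9 (0.906) and dim-8 (0.958) lower after crossing, where 59.6% of all genes were apart. In the authors' deposited table the intervals met for hpo (ratio 1.02), set-7 (1.00), suz12 (1.07) and eed (0.867). Between the authors' deposited table and the edgeR fit with TMM the sign was the same in 7 of the 10 genes and differed in dim-2, dim-8 and dim-9. With plain library sizes it was the same in all 10. The table rests on the same libraries, and it is not stated whether its limits take in the spread between plates.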

How the data were processed

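The authors deposited raw counts per gene, with 1 column per library. The submitters' processing notes name CASAVA 1.8.2, fastp, HISAT2 2.1.0 and StringTie 1.3.3b; no source used here gives the build, the annotation or whether counting used strand. The authors' deposited table of relative expression holds a ratio per gene and stage, with distances to 2 limits, per the file headers. One row of the count table, with more values than libraries, was left out. Symbols and gene spans came from the RefSeq gene table of assembly NC12, which matched 10590 of 10591 rows; coordinates are left out, since that assembly may not be the one behind the counts.

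EdgeR 4.0.16 (R 4.3.3) tested the counts by its two-sided quasi-likelihood method, with filterByExpr, TMM scaling, robust dispersions, the group as only term and all 5 libraries. P-values were adjusted by Benjamini-Hochberg over the 8638 tested genes, with a threshold of 0.05. SE were taken from the F statistic, and a prior count of 2 went into log2 CPM. The fit was tested on simulated data. On the TMM-adjusted library sizes 3 counts correspond to 0.0717 to 0.110 CPM.

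The 10 genes and the lists were chosen with earlier results of these data known. All 10 are named, as are the related genes past the threshold or else the 6 of smallest p, and the 3 genes most like rid and dim-2. Alternatives were DESeq2 1.42.0, limma-voom (limma 3.58.1), DESeq2 size factors or plain library sizes in edgeR, no filter, 1 CPM in 2 libraries, no ribosomal RNA genes, a replicate block, and leaving out single libraries.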

Additional observations from a re-analysis of the deposited data

How the results depend on the processing

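The number of the 10 genes past the threshold was 0 in all 13 alternative fits, with adjusted p of 0.124 or more. Over all genes the count of 4 became 1019 with DESeq2 and 266 with the replicate number as a block, and 0 to 762 when 1 library was left out (762 when this was crossed replicate 1, 192 for uncrossed replicate 3, and 0 for each of the other libraries). The count of 1 of the 10 at an unadjusted p under 0.05 became 0 with DESeq2 size factors, plain library sizes, no filter and the block, and 0 to 2 when 1 library was left out. No related gene passed the threshold in any fit that kept both uncrossed libraries. Fits with 1 uncrossed library have no replication in that group.

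Rid, dim-7, hpo, set-7, eed and suz12 kept their sign in all 13 alternatives. With plain library sizes the log2 fold change turned to -0.18 in dim-2, -0.036 in dim-8 and -0.12 in dim-9. Leaving out 1 library gave -0.17 to 0.24 in dim-2, -0.10 to 0.28 in dim-9 and -0.13 to 0.0025 in dim-5. The cause was not tested in any of these. With the replicate block dim-5 was at 0.0020, and the block changed no call of the 10 genes. Replicate numbers 1 and 3 occur in both groups, and their libraries' deviations from the group means correlated across genes at 0.257 and 0.224. With 2 uncrossed libraries these have equal and opposite deviations, so the 2 correlations are not independent. Nothing in the labels ties a number to a shared batch or day, so the libraries are taken to share a number and no more. Rid and eed had the fewest counts of the 10 genes, 53 to 171 per library, and so the widest counting error relative to their level.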

Other observations

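The histone genes include that for histone H3, which DIM-5 and PRC2 methylate. All 8 tested histone genes had log2 fold changes above 0 with TMM and below 0 with plain library sizes, and none passed an adjusted p of 0.05 by edgeR or DESeq2. The smallest of these values with TMM was 0.0040, in hH1. Of all 8638 tested genes 4328 were above 0 with TMM, and 6446 were below 0 with plain library sizes. The gene for histone H3, hH3, had 1800.2 and 1862.6 CPM before and 2095.8, 1938.7 and 1809.3 CPM after crossing, with overlapping groups (log2 fold change 0.089, SE 0.14, edgeR adjusted p = 0.719). The steadiest was hH2A, at 1400.4 and 1423.7 CPM before and 1442.8, 1443.8 and 1392.4 CPM after crossing. The linker histone gene hH1 had 765.3 and 1005.2 CPM before crossing and 999.2, 823.8 and 840.1 CPM after it, and all 3 crossed libraries lay between the uncrossed ones, as they did for dim-2.

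NCU02035, the neighbour of rid that carries NCU02034 as a former tag, had 7.08 and 5.95 CPM before and 9.39, 10.7 and 9.53 CPM after crossing. The log2 fold change of 0.60 (SE 0.18) had adjusted p of 0.175 (edgeR) and 0.0286 (DESeq2), and the gene was singled out after its values were seen. At an adjusted p under 0.05 DESeq2 called 11.8% of all tested genes and edgeR 0.0463%.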
